A study of Sus scrofa with 19 samples.

Results

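The 6 libraries of the Hyper and Control pigs were compared with the 13 libraries of the DOX, MYO and RemoLV pigs, out of 19 in all. They were chosen by the library numbers of the count files, in which Hyper and Control carry 1 run of consecutive numbers outside the range of the other 13. RNA of myocardium from large white pigs, labelled female, was enriched for poly(A) and sequenced with 1 library per pig. Hyper (n = 3) had an artificial isthmus stenosis of the aorta with a follow-up of 6 months, and Control (n = 3) had a follow-up of 6 months and is called sham-operated in the sample descriptions and untreated in the study's methods. DOX (n = 5) received doxorubicin and MYO (n = 5) its liposomal form Myocet, both at 60 mg/m2 in 3 cycles with a follow-up of 3 months, and these data came from an earlier study. RemoLV (n = 3) had a percutaneous coronary occlusion of 90 min with a follow-up of 6 months, and its tissue came from the posterior wall, whereas the tissue of the other groups came from the anterior wall. The study calls the Hyper pigs juvenile at stent implantation and the control animals of the same age as the treated ones, and no age in figures was given in the sources used here. The 2 sets differed throughout in library numbers and treatment, which cannot be told apart by the comparison. Follow-up and source study differed only from DOX and MYO, since RemoLV shared the follow-up of 6 months, so the comparison with RemoLV alone holds follow-up equal.

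Several libraries stood apart from their labels or their set. The expression table deposited with the counts named 3 of the columns that match RemoLV count files Control and the 3 that match Control count files RemoLV, so that under those names the 6 libraries would be Hyper and RemoLV, with the same division into 6 and 13. In all, 8 of the 19 columns matched a count file of another group than their own name says, the other two being 1 DOX and 1 MYO library in exchange. Hyper 1 and Hyper 3 were also exchanged between the table and the count files, and the names used here are those of the count files. DDX3Y, a gene of the Y chromosome, was at 96.1 to 177 CPM (counts scaled to a common library total) in the DOX and MYO libraries, although the labels call all pigs female, and at 0 to 0.137 CPM in the other groups. MYL2, the ventricular myosin light chain, was at 13455 to 18077 CPM in Hyper and Control, at 8975 to 13502 in DOX and MYO, and at 18.6 to 115 in RemoLV. MYL4, the atrial form, was at 6029 to 8130 CPM in RemoLV and at no more than 21.9 CPM in any other library, so the defining ventricular marker was nearly absent from a wall labelled ventricular. Total counts were 1.56e+07 to 2.04e+07 in Hyper and Control and 9.53e+06 to 1.61e+07 in the other 13.

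A gene was called separated when its lowest CPM in one set lay above its highest CPM in the other, after scaling by the trimmed mean of M-values (TMM). The gap is the distance between the ranges on the log2 CPM scale. Since separation itself picks the genes, its values are a description and carry no test. Of 13552 genes tested, 770 (5.68%) were separated and higher in Hyper and Control, and 525 (3.87%) were separated and lower. Without the RemoLV libraries the counts were 996 and 896. Without Hyper 3 they were 1026 and 816. The median gap was 0.17 among the higher genes and 0.14 among the lower ones, and only 29 and 8 genes had ranges at least 1 log2 unit apart. MAP1LC3B lay just inside with a gap of 0.00025, and RBM18 just outside with its ranges overlapping by 1.4e-06.

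The left ventricle is dominated by cardiomyocytes, whose poly(A) RNA is rich in transcripts for mitochondrial respiration and the contractile apparatus. Ribosomal protein and respiratory chain genes have short transcripts that each cell makes in large amounts, while many transcription factors and chromatin regulators have transcripts with long untranslated ends. Collagens are made mainly by fibroblasts and rise in fibrosis. Transcripts also differ in the share of G and C bases (GC content), which can affect how well a fragment is copied and sequenced.

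Examples of the base composition of genes with wide gaps are given first. Each line gives the first 90 bases, 5′ to 3′ on the coding strand, of the longest coding exon (RefSeq, Sscrofa11.1) of the higher genes with the lowest GC content and the lower genes with the highest, among those named for their gaps, with G and C in capitals. They were picked as extremes and show what low and high GC content look like, while the shares over all genes by GC content are given further on.
ATRX, higher, chrX:61754598-61754687, minus strand: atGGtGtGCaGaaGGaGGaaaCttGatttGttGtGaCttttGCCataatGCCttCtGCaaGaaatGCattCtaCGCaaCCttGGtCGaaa
ANKRD12, higher, chr6:98718903-98718992, minus strand: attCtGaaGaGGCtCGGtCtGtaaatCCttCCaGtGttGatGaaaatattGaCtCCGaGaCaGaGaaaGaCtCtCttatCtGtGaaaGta
NRTN, lower, chr2:73174785-73174874, minus strand: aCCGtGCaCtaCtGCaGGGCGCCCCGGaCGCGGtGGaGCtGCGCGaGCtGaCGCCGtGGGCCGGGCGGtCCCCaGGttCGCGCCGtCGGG
DACT3, lower, chr6:52545888-52545977, minus strand: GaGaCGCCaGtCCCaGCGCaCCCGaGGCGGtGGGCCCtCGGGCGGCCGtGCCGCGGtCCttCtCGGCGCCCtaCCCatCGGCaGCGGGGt
In these windows the GC content was 42.2% for ATRX, 40.0% for ANKRD12, 77.8% for NRTN and 77.8% for DACT3. Over the longest RefSeq transcript it was 37.0%, 37.7%, 76.6% and 68.3%.

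ZBTB20, a zinc finger repressor of transcription on chromosome 13 (144855821 to 145668320, plus strand), had the widest gap. Its level was 99.8, 108 and 87.2 CPM in Hyper and 90.7, 84.8 and 80.7 CPM in Control. In the other 13 libraries its lowest, median and highest levels were 1.13, 2.42 and 3.65 CPM, so no library of one set came near the other. The log2 fold change of the 6 against the 13 libraries was 5.19 ± 0.13 (SE), with a gap of 4.41. Against DOX and MYO it was 5.41 ± 0.14, and against RemoLV 4.74 ± 0.22.

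NFAT5, the transcription factor of the response to osmotic stress (chromosome 6, 17313511 to 17434951, minus strand), had a smaller fold change and gap than ZBTB20. It was at 33.0, 46.2 and 30.3 CPM in Hyper and at 25.5, 36.0 and 24.5 CPM in Control. The other 13 libraries ran from 2.54 to 7.67 CPM with a median of 4.22, the highest being a RemoLV library. The log2 fold change was 2.84 ± 0.15 (SE) with a gap of 1.66. The list of 8 tested genes of the osmotic response, NFAT5 included, had a median log2 fold change of -0.09, against -0.03 over all genes, and NFAT5 was its only separated member.

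AAK1, a kinase that phosphorylates the clathrin adaptor AP2 (chromosome 3, 72793977 to 72960315, plus strand), was at 83.4, 68 and 64.2 CPM in Hyper. In Control it was at 58.2, 64.7 and 47.2 CPM. The 13 other libraries lay between 6.58 and 17.4 CPM with a median of 10.9, and RemoLV again held the highest value. The log2 fold change was 2.50 ± 0.14 (SE) with a gap of 1.43. Of 24 genes of AAK1 and clathrin endocytosis, 3 were separated and higher, namely AAK1, the scaffold ITSN2 (1.55 ± 0.13) and the related kinase BMP2K (1.52 ± 0.15), and none was separated and lower, where 5.68% and 3.87% of all genes were. The median of the list was 0.01, and 7 rose and 5 fell, near the 26.3% and 26.6% of all genes. With library totals 2 were separated and higher and 2 lower, BMP2K being the one lost, and 3 rose and 16 fell.

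**Figure D1:**
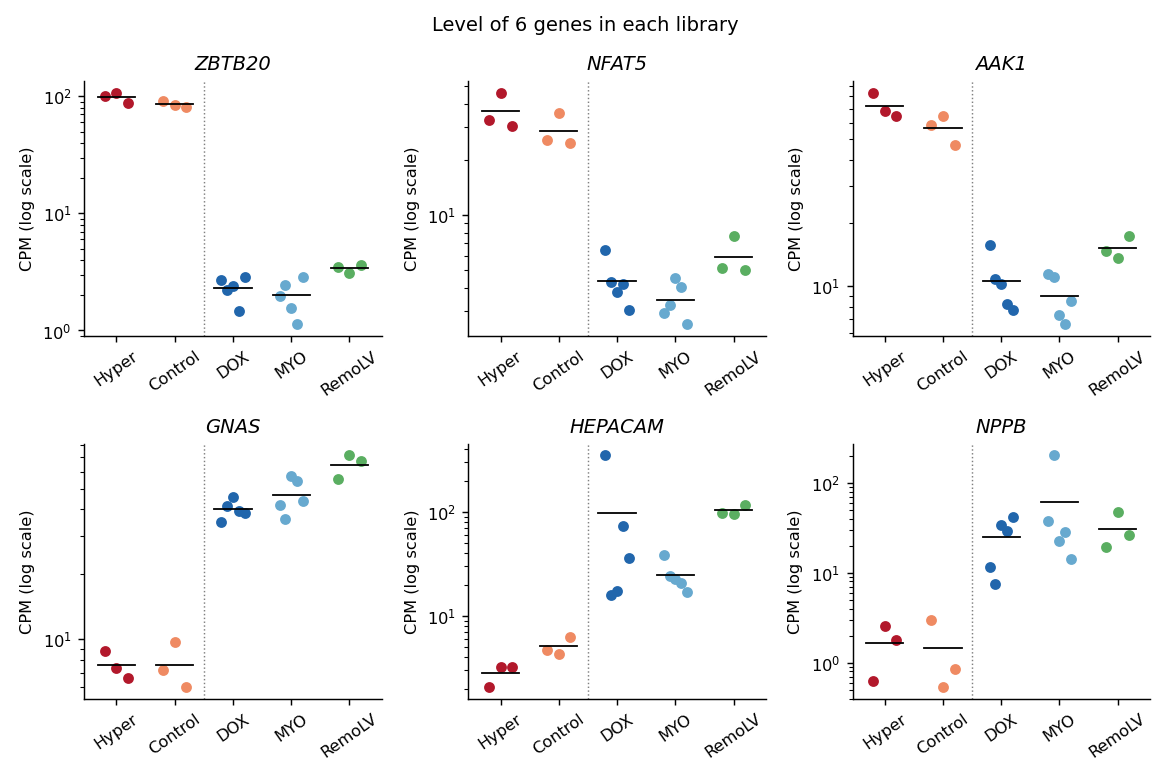
CPM of 6 genes in each library on a log axis, with points for libraries, bars for group means and a dotted line between the 6 and the 13 libraries. ZBTB20, NFAT5 and AAK1 lie higher and GNAS, HEPACAM and NPPB lower in all Hyper and Control libraries than in any other library.

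On the higher side NFIB and NFIA, transcription factors of the nuclear factor I family, were at 112 to 230 and 76.8 to 114 CPM in the 6 libraries, against 7.92 to 25.1 and 21.4 to 33.2 CPM in the 13. Their log2 fold changes were 3.54 ± 0.13 and 1.99 ± 0.09 (SE). The chromatin remodelling factors ATRX (2.14 ± 0.08) and RSF1 (1.93 ± 0.09), the homeobox gene HMBOX1 (2.76 ± 0.12) and ANKRD12 (2.44 ± 0.09) were likewise higher. CDK6, a cyclin-dependent kinase of the G1 phase, was at 15.8 to 32.5 CPM in the 6 and 0.856 to 3.81 CPM in the 13. DGKH, a diacylglycerol kinase, was at 14.7 to 23.6 CPM in the 6 and 1.28 to 3.31 CPM in the 13. EIF5B, a factor that joins the ribosomal subunits at initiation, was the most abundant of these genes, at 193 to 236 CPM against 57.4 to 80.7 CPM. All 12 widest-gap genes on this side, ZBTB20, NFAT5 and AAK1 included, had a longest transcript above the median of 3607 bases and a GC content below the median of 51.2%.

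On the lower side the gaps were narrower. GNAS, which encodes the stimulatory G protein alpha subunit (chromosome 17, 58985580 to 59053022, plus strand), was at 8.86, 7.38 and 6.64 CPM in Hyper and at 7.17, 9.74 and 5.99 CPM in Control. The 13 other libraries ran from 35.1 to 71.3 CPM with a median of 43.6. Its log2 fold change was -2.69 ± 0.13 (SE) and its gap 1.84. The locus has several overlapping transcripts, and reads assigned to more than 1 gene were not counted.

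NPPB, the gene of B-type natriuretic peptide, which cardiomyocytes release under wall stress, was at 0.618, 2.56 and 1.81 CPM in Hyper and at 2.99, 0.534 and 0.846 CPM in Control. In the 13 libraries it spread from 7.55 to 202 CPM with a median of 28.3. The highest value was that of MYO 2 alone, and the other 12 ran from 7.55 to 47.0 CPM. The log2 fold change was -4.56 ± 0.69 (SE). HEPACAM, a cell adhesion molecule, was at 2.06 to 6.21 CPM in the 6 and at 15.7 to 349 CPM in the 13, with a log2 fold change of -4.05 ± 0.62.

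The remaining genes of this side included GPR27, an orphan receptor (-2.11 ± 0.18), and DACT3, an inhibitor of Wnt signalling (-2.35 ± 0.22). NRTN, the neurotrophic ligand neurturin (-1.74 ± 0.15), COL4A5, a chain of basement membrane collagen (-1.65 ± 0.13), and ADAM33, a metalloproteinase (-1.47 ± 0.12), were lower too. DNM1, a dynamin (-1.42 ± 0.14), LAD1, an anchoring filament protein (-1.41 ± 0.09), and RASA3, a GTPase-activating protein (-1.23 ± 0.12), were lower by the least. All 12 widest-gap genes on this side had a GC content above the median of all genes, from 52.8% to 76.6%, and 7 of the 12 had a transcript longer than the median. Each of the 24 widest-gap genes stayed separated when counts were scaled by library totals alone, and each stayed separated after correction for GC content and length.

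Among genes without a symbol, 6 had at most 3 counts in each of the 13 libraries and at least 10 in each of the 6, and no gene showed the reverse. One of them, ENSSSCG00000036080, had 69 to 104 counts in the 6 and 0 to 3 in the 13. ENSSSCG00000018063 took 1.10% to 2.88% of all counts in the 6 libraries and 0.0786% to 0.315% in the 13. ENSSSCG00000032277 was lower, at 75.7 to 141 CPM against 429 to 1148 CPM. These 3 were chosen after their values were seen.

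Beyond separation, all genes were tested by quasi-likelihood in edgeR, with p-values adjusted after Benjamini and Hochberg. At an adjusted p of at most 0.05 (FDR threshold), 3560 genes (26.3%) were higher and 3607 (26.6%) lower in the 6 than in the 13 libraries. When a change of 2 or more log2 units was also asked for, 100 (0.738%) were higher and 170 (1.25%) lower. Against DOX and MYO alone, 3382 genes (25.0%) were higher and 3490 (25.8%) lower, and against RemoLV alone 3217 (23.7%) and 3263 (24.1%). These comparisons share the 6 libraries. Within the 13 libraries, RemoLV differed from DOX and MYO at 4577 genes (33.8%). Within the 6, Hyper and Control differed at 0 genes by edgeR, where 2418 genes had an unadjusted p below 0.05, and at 312 genes by DESeq2.

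Read by gene class, the largest share of separated genes on the higher side among lists of at least 20 tested genes was in the cytosolic ribosomal proteins. Of 71 cytosolic ribosomal protein genes, 53 were separated and higher and 0 lower, where 5.68% of all genes were separated and higher. With library totals in place of TMM only 7 were, as given with the scaling further on. By edgeR, 66 rose, 0 fell and 5 did not pass the test, and the median log2 fold change was 0.54 against -0.03 over all genes. RPS29 was at 391 to 577 CPM in the 6 and 162 to 212 CPM in the 13 (1.25 ± 0.07, SE). RPL38 was at 271 to 328 CPM against 109 to 147 CPM (1.20 ± 0.06), and RPS28 at 380 to 552 CPM against 160 to 210 CPM (1.29 ± 0.08). These are the members with the widest gaps, and their folds lay above the median of the class. Ribosomal protein genes have many near-identical processed copies in the genome, so counts of single members are uncertain.

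Translation factors moved with them. Of 40 tested, 16 were separated and higher, 30 rose and 1 fell, with a median of 0.44. Of all genes 5.68% were separated and higher, 26.3% rose and 26.6% fell. With library totals 4 of the 40 were separated and higher, 14 rose and 7 fell. EIF3J, a loosely bound subunit of initiation factor 3, was at 118 to 194 CPM in the 6 and 34.1 to 73.3 CPM in the 13 (1.54 ± 0.10). EEF1B2, a subunit of elongation factor 1, was at 284 to 341 against 159 to 207 CPM (0.81 ± 0.06). Proteasome subunits followed, with 16 of 35 separated and higher, 1 separated and lower, 27 that rose and 1 that fell. With library totals 0 of them were separated and higher and 1 lower, and 9 rose and 6 fell. PSMC5, an ATPase of the proteasome's cap, was at 187 to 226 CPM in the 6 and 104 to 126 CPM in the 13 (0.86 ± 0.05). It was not separated with library totals.

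Genes of mitochondrial respiration were the other large class. Of 76 nuclear genes of oxidative phosphorylation, 35 were separated and higher, 70 rose and 0 fell, with a median log2 fold change of 0.55. The shares over all genes were 5.68% separated and higher, 26.3% that rose and 26.6% that fell. With library totals 13 of the 76 were separated and higher, 39 rose and 7 fell, with a median of 0.17. NDUFB1, a small subunit of complex I, was at 267, 242 and 206 CPM in Hyper, at 311, 224 and 311 CPM in Control, and at 81.8 to 119 CPM in the 13 (1.44 ± 0.08). ATP5MK, a small subunit of the ATP synthase, was at 387 to 571 against 161 to 232 CPM (1.29 ± 0.07), and NDUFS4, another complex I subunit, at 312 to 403 against 142 to 212 CPM (0.99 ± 0.06). Of the 13 genes of mitochondrial DNA, 11 rose and 1 fell, but only ND4 and COX3 were separated. ND4 was at 15604 to 25925 CPM in the 6 and 8030 to 12579 in the 13. The mitochondrial genes together took 18.6% to 28.8% of the counts in the 6 and 12.7% to 21.2% in the 13, so these ranges overlapped.

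Mitochondrial ribosomal proteins were mostly higher. Of 72, 18 were separated and higher and 1 lower, 58 rose and 5 fell, and the median was 0.40. MRPL42 (1.05 ± 0.10) and MRPS18C (0.81 ± 0.09) were higher, while MRPL57, with a GC content of 67.6%, was separated and lower, at 5.27 to 10.9 CPM against 17.1 to 30.8 CPM (-1.47 ± 0.13). After correction for GC content and length MRPL57 and MRPS18C stayed separated, and MRPL42 did not. Of 24 genes of glycolysis, 4 were separated and higher, among them GAPDH (0.87 ± 0.10), ENO3 (0.73 ± 0.09) and HK1 (0.52 ± 0.08), beside 5.68% of all genes. With library totals 0 were separated and higher and 4 lower, and 6 rose and 10 fell. Of 24 sarcomere genes, 12 rose and 3 fell, and TNNC1, cardiac troponin C, was the only separated one (0.73 ± 0.08), where 26.3% of all genes rose and 26.6% fell. With library totals 6 rose, 5 fell and 0 were separated and higher and 1 lower, with a median of 0.03. TNNC1 was also not separated after correction for GC content and length. CKM, the muscle creatine kinase, was at 7185 to 10630 CPM in the 6 and 1713 to 5773 CPM in the 13. HADHA, an enzyme of fatty acid oxidation, lay just inside separation with a gap of 0.0012.

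**Figure D2:**
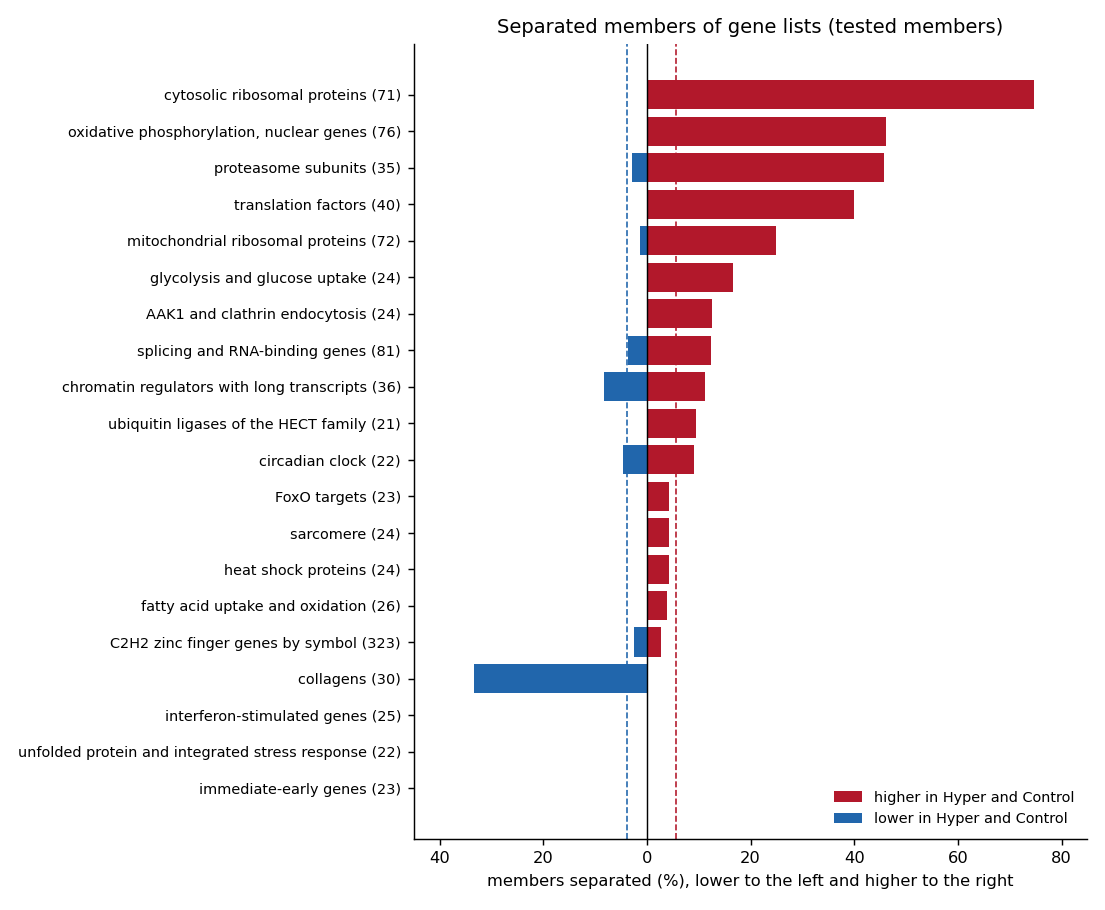
Percentage of tested members of each gene list with at least 20 tested members that were separated, with bars to the right for higher and to the left for lower in Hyper and Control, and dashed lines at 5.68% and 3.87% for all genes. Cytosolic ribosomal proteins have the longest bar to the right (53 of 71) and collagens the longest to the left (10 of 30).

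Collagens formed the class on the lower side. Of 30 tested, 0 were separated and higher and 10 were separated and lower, where 3.87% of all genes were separated and lower. By edgeR 23 fell and 0 rose, with a median log2 fold change of -0.97. COL1A1, the main chain of fibrillar type I collagen, was at 622, 246 and 623 CPM in Hyper and at 622, 550 and 331 CPM in Control. The 13 libraries ran from 880 to 2052 CPM, with the 3 RemoLV libraries at 1834 to 2052 CPM. The log2 fold change was -1.47 ± 0.21 (SE). COL3A1 was at 667 to 1914 against 2483 to 6941 CPM (-1.45 ± 0.18), and COL1A2 at 215 to 578 against 668 to 2268 CPM (-1.44 ± 0.20). Against DOX and MYO alone COL1A1 was at -1.23 ± 0.21 and against RemoLV alone at -1.95 ± 0.26.

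The summed level of the 30 collagens was 2783 to 5258 CPM in Hyper and Control, 7113 to 10361 in DOX and MYO and 13509 to 15840 in RemoLV. Hyper lay with Control here, and its libraries overlapped those of Control for COL1A1, COL3A1 and COL1A2. The list of 10 fibroblast markers moved in the same direction, with 3 separated and lower (the same 3 collagens), 6 that fell and 0 that rose. Its summed level was 1661 to 4024 CPM in the 6, 4805 to 7414 in DOX and MYO and 11227 to 12901 in RemoLV, and none of its members was at 3 counts or fewer in all 6. The 3 collagens make up most of that sum, so it is no separate measure of them. In the other 7 markers, a split made after seeing the data, 3 fell and 0 rose, and the sum was 533 to 930 CPM in the 6, overlapping 762 to 1039 in DOX and MYO and below 1581 to 1764 in RemoLV. In bulk tissue fewer cells of a type and less RNA per cell cannot be told apart. Proliferation markers were lower as well. Of 11, 10 fell and 0 rose, where 26.6% of all genes fell and 26.3% rose. Their median was -1.12, but none was separated, and the summed level was 17.4 to 32.5 CPM in the 6 against 24.3 to 69.7 CPM in RemoLV and 29.1 to 69.2 CPM in DOX and MYO.

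**Figure D3:**
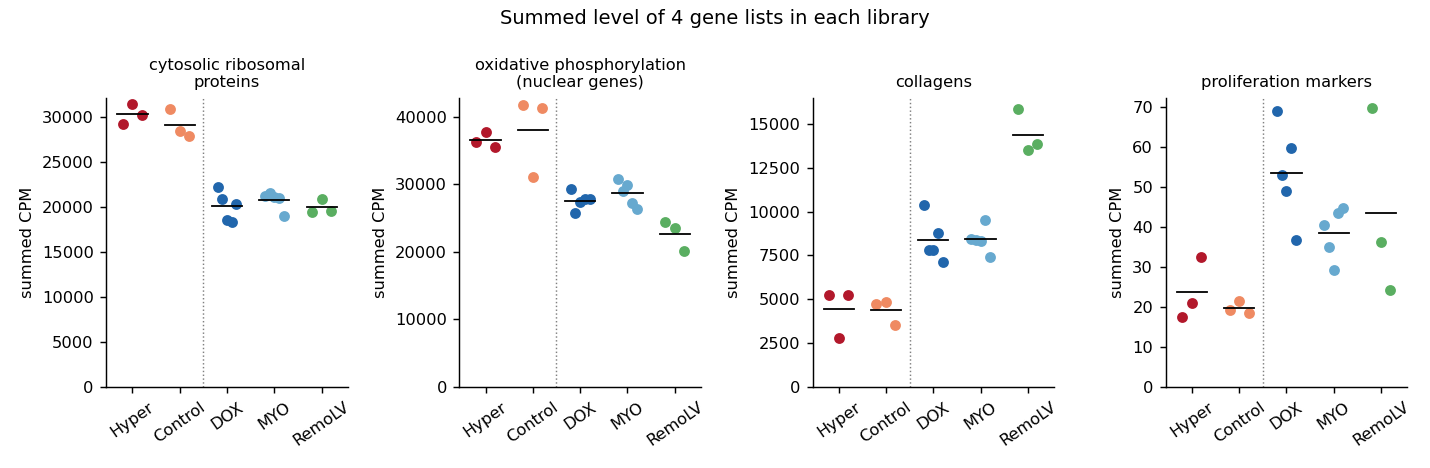
Summed CPM of 4 gene lists in each library, with points for libraries, bars for group means and a dotted line between the 6 and the 13 libraries. The ribosomal proteins run from 27900 to 31488 in the 6 libraries and lie higher than in any other library, collagens lie lower, and the proliferation markers overlap.

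Other classes held fewer separated genes in number, to be read beside the 5.68% and 3.87% of all genes. The glucocorticoid-responsive genes had 3 of 19 (15.8%) separated and higher, with 10 that rose, 1 that fell and a median of 0.49. FKBP5, a co-chaperone of the steroid receptor, was at 181 to 309 CPM in the 6 and 33.8 to 119 CPM in the 13 (1.82 ± 0.22), ZBTB16 at 195 to 378 against 37.4 to 151 CPM (1.75 ± 0.28), and NFKBIA, the inhibitor of NF-kappa B, at 77.6 to 106 against 33.9 to 68.6 CPM (0.89 ± 0.14). With library totals only ZBTB16 of these was separated, and 6 of the list rose and 3 fell. Among 22 genes of the circadian clock, 2 were separated and higher, RORA among them (1.01 ± 0.14), and BHLHE41 was separated and lower (-2.21 ± 0.18), while 6 rose and 8 fell (26.3% and 26.6% of all genes). The time of day at sampling was not given in the sources used here.

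Long regulators were divided. Of 36 chromatin regulators with long transcripts, 4 were separated and higher, among them ATRX and KMT2E (1.04 ± 0.05), and 3 lower, among them KMT2B (-0.83 ± 0.08). By edgeR 16 rose and 6 fell, where 26.3% of all genes rose and 26.6% fell, and the median was 0.03. With library totals 1 was separated and higher and 8 lower, and 5 rose and 21 fell. KMT2E and KMT2B encode related proteins, with transcripts of 7734 and 8453 bases and a GC content of 42.8% and 63.3%. After correction for GC content and length KMT2E stayed separated and KMT2B did not. The part of GC content in this pair was not tested. Of 323 zinc finger genes, 9 were separated and higher, ZNF283 among them (1.85 ± 0.14), and 8 lower, with a median of 0.03. These shares, 2.79% and 2.48%, were below those of all genes. Of 81 splicing and RNA-binding genes, 10 were separated and higher, among them SON, a speckle protein (1.35 ± 0.07), and MBNL3 (2.18 ± 0.19). Another 3 were lower, RBM38 among them (-1.47 ± 0.16), which was not separated after correction for GC content and length. With library totals 3 of the list were separated and higher and 8 lower. Immediate-early genes, interferon-stimulated genes and genes of the unfolded protein response had no separated member in 23, 25 and 22 tested. Of 18 genes of the p53 response and anthracycline targets, 1 (5.56%) was separated and higher, CCNG1 (0.65 ± 0.08), and 2 were lower, BBC3 (-1.50 ± 0.26) and XPC (-0.79 ± 0.14). None of the 3 stayed separated after correction for GC content and length, and CCNG1 was also not separated with library totals. By edgeR 5 of the list rose and 5 fell, near the 26.3% and 26.6% of all genes.

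Lists of other cell types were followed alongside. Macrophage markers (10 tested) and blood markers (6 tested) had no separated member, and their summed levels overlapped between the sets, at 198 to 349 against 224 to 548 CPM and at 22.3 to 358 against 9.08 to 199 CPM. By edgeR, 5 macrophage markers fell and 1 rose, with a median of -0.61, where 26.6% of all genes fell and 26.3% rose. Of the blood markers 3 rose and 0 fell, with a median of 1.33, but 0 passed with libraries thinned to the smallest total and 1 rose after correction for GC content and length. Their sum was 358 CPM in Control 1 and 344 in Control 3, and far lower in the other 4 of the 6 libraries (22.3 CPM in Hyper 1). Of 8 adipocyte markers, 4 rose and 0 fell, and none was separated, with a summed level of 1858 to 4219 CPM in the 6, 1234 to 2034 in DOX and MYO and 658 to 920 in RemoLV. Of 10 smooth muscle and pericyte markers, 3 rose and 3 fell, near the shares of all genes, with a median of -0.17 and a summed level of 3969 to 5586 CPM in the 6, 4497 to 6528 in DOX and MYO and 6369 to 6735 in RemoLV. RGS5 was the one separated member (0.52 ± 0.06), and it was not separated with library totals or after correction for GC content and length. The atrial markers had 0 separated members, since DOX and MYO were near the 6 libraries (112 to 154 against 110 to 162 CPM), while RemoLV was at 6453 to 8638 CPM. The part of any cell type in the results was not tested.

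Transcript length was related to separation in a curved way. Among 11829 genes with a RefSeq transcript, 10 bins of equal size were made by the longest transcript. In the shortest bin (204 to 1350 bases), 16.2% of genes were separated and higher and 1.44% lower. The higher share fell to 2.62% in the bin of 4309 to 5174 bases and stood at 6.76% in the longest. The lower share was 5.75% in the bin of 3608 to 4308 bases and 2.96% in the longest. The median transcript was 2285 bases among separated higher genes, 4135 among lower genes and 3636 among the rest. Of the 192 higher genes in the shortest bin, 70 were ribosomal or respiratory genes of the lists above. Without those lists, 11.6% of the 1054 other genes of that bin were separated and higher. With the whole gene span in place of the transcript the shares were flatter, 8.54% in the shortest and 6.42% in the longest bin.

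A higher share at both ends of length than between was found within each level of expression, with GC content not held equal. With all tested genes split into 4 equal classes by mean log2 CPM, in the class with the highest level, 31.5% of the shortest bin, 8.78% of the genes between and 11.6% of the longest bin were separated and higher. In the class below it the shares were 17.9%, 4.59% and 6.73%. In the lowest class they were 0.873% (2 of 229 genes), 0.435% and 2.39%.

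GC content was added after the first values were seen, and it went with both directions. From the lowest to the highest of 10 equal bins of GC content, the share of genes separated and higher went from 9.47% to 0.338%, and the share separated and lower went from 0% (0 of 1183 genes) to 12.9%. The course was not even at each step, since the higher share was 10.7% in the bin next to the lowest. The median GC content was 44.7% among the higher genes, 60.2% among the lower genes and 51.1% among the rest. Median log2 fold changes over all genes of a bin moved likewise, from 0.28 in the lowest to -0.50 in the highest. The range was 0.36 to -0.54 against DOX and MYO and 0.16 to -0.36 against RemoLV.

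The contrast of low and high GC content was found at each transcript length. In the shortest bin, 25.8%, 29.8%, 16.9% and 2.58% of genes were separated and higher from the lowest to the highest of 4 equal classes of GC content. In the longest bin the shares were 10.4%, 6.25%, 1.85% and 0%, and among the genes between they were 8.40%, 5.25%, 2.12% and 0.647%. At like GC content the longest bin thus lay close to the genes between, and the shortest bin above them. In the longest bin the shares separated and lower were 0% and 16.5% in the lowest and highest classes. The contrast by GC content was also seen in the class of highest expression, where 18.3% of genes with the lowest and 2.73% of genes with the highest GC content were separated and higher.

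**Figure D4:**
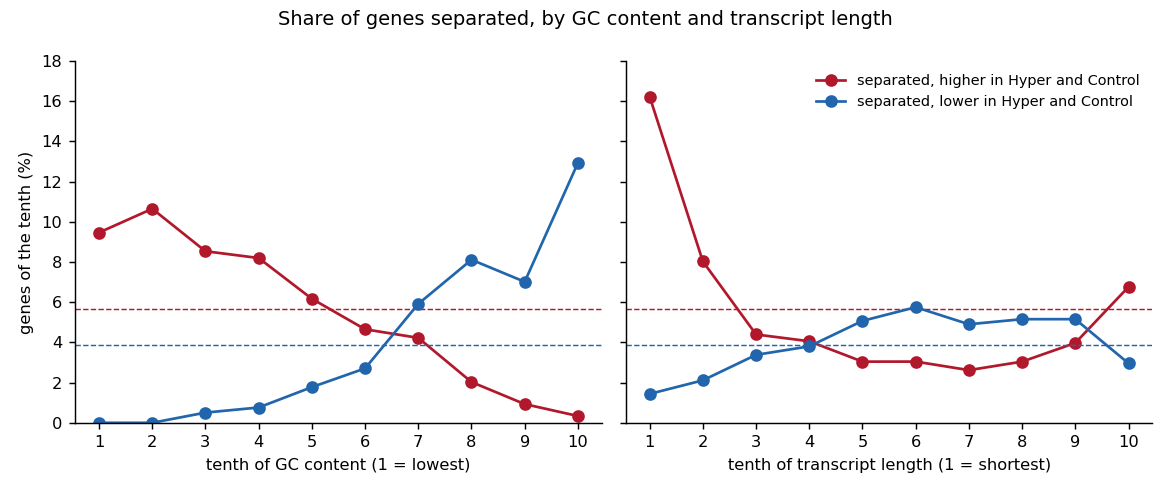
Percentage of genes that were separated in each of 10 bins of GC content (left) and of transcript length (right), higher in red and lower in blue, with dashed lines at 5.68% and 3.87% for all genes. With GC content the higher share falls to 0.338% and the lower share climbs to 12.9%, while with length the higher share is largest at the short end (16.2%).

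Single libraries differed in the same feature, but not in 2 clean sets. For each library the gene-centred log2 CPM was correlated with GC content across 11829 genes, which are not independent replicates. Spearman's rho was -0.60, -0.17 and 0.05 in Hyper and -0.25, -0.53 and -0.43 in Control. It was 0.16 to 0.33 in DOX, 0.33 to 0.45 in MYO and -0.05 to -0.01 in RemoLV. Hyper 3 thus lay above the 3 RemoLV libraries, and the remaining 5 libraries of Hyper and Control lay below all 13. The mean was -0.32 ± 0.24 (SD, n = 6) in the 6 libraries and 0.25 ± 0.18 (SD, n = 13) in the 13 (two-sided exact test by permutation of the 27132 ways to draw 6 of the 19, p = 0.00015, adjusted over 8 library measures p = 0.00039). With transcript length the means were -0.05 ± 0.10 (SD, n = 6) and 0.01 ± 0.09 (SD, n = 13), and the difference did not pass the exact test (p = 0.20, adjusted p = 0.20). Libraries of one group share their treatment, which this test does not take into account. GC content was taken up after values of these same libraries had been seen, which the adjustment does not cover. Its p-value therefore describes the difference and is no separate support for it.

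**Figure D5:**
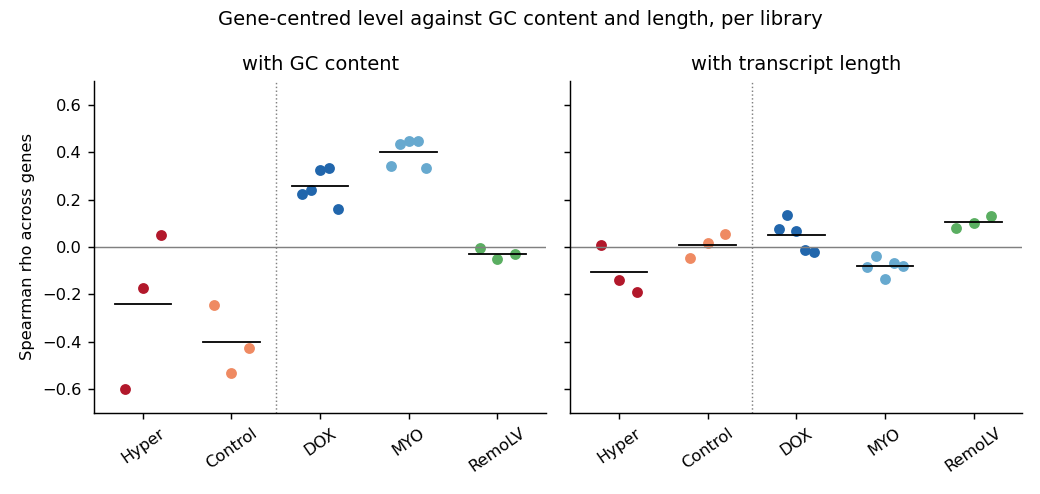
Spearman's rho across genes between the gene-centred log2 CPM of each library and GC content (left) or transcript length (right), with points for libraries and bars for group means. With GC content, 5 of the 6 Hyper and Control libraries lie below the other 13 and Hyper 3 lies at 0.05, whereas with length the ranges of the 6 and the 13 overlap, RemoLV (0.08 to 0.13) lying above both Hyper and Control.

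When log2 CPM was corrected in each library for GC content and length by a local regression, an alternative added after seeing the data, fewer genes were separated. Of the 653 higher and 470 lower genes with a RefSeq transcript, 339 (51.9%) and 150 (31.9%) stayed separated, and 547 and 223 genes were separated in all. The median GC content was then 51.5% among the higher and 54.2% among the lower genes. ZBTB20 (4.87 on the log2 scale), NFAT5 (2.65) and AAK1 (2.43) kept most of their difference, and so did NPPB (-4.76) and GNAS (-2.37). The classes did not all move alike, compared over their members with a RefSeq transcript. The separated higher genes went from 51 to 26 of 67 ribosomal proteins (1 was then lower, median 0.26), from 21 to 15 of 46 nuclear respiratory genes (median 0.33), and from 16 to 10 of 35 proteasome subunits. They went from 16 to 17 of 40 translation factors (median 0.43) and from 4 to 6 of 22 genes of glycolysis. Of the 13 genes of mitochondrial DNA none was separated, ND4 and COX3 included, and 4 rose and 2 fell, with a median of 0.35. Separated lower collagens went from 9 to 3 of 29, COL3A1 and COL4A5 among them but not COL1A1 and COL1A2, while 19 still fell at the FDR threshold with a median of -0.70. A correction of this kind takes away any difference that follows GC content or length, whatever its source.

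The scale also matters for the direction of the mild changes. The 10 most abundant genes took 24.0% to 33.7% of counts in the 6 libraries and 17.9% to 24.2% in the 13, and ranges of TMM factors did not meet (0.696 to 0.965 against 0.972 to 1.18). With library totals alone the median log2 fold change over all genes was -0.39, and 165 genes were separated and higher and 1403 lower. On that scale 7 of 71 ribosomal proteins were separated and higher and 1 lower, 13 of 76 nuclear respiratory genes were higher, 4 of 40 translation factors were higher, 0 of 35 proteasome subunits were higher and 1 lower, and 14 of 30 collagens were lower. The ribosomal proteins had a median of 0.17 (34 rose, 7 fell), the nuclear respiratory genes 0.17 (39 rose, 7 fell), the translation factors 0.06 (14 rose, 7 fell), the proteasome 0.04 (9 rose, 6 fell) and the mitochondrial ribosomal proteins 0.02 (15 rose, 13 fell). All these medians lay above that of all genes. Counts of other classes lay to the lower side on that scale. Of the chromatin regulators 1 was separated and higher and 8 lower (5 rose, 21 fell), of the splicing genes 3 and 8 (10 rose, 40 fell), of the zinc finger genes 4 and 19 (13 rose, 149 fell), and of the clock genes 0 and 1 (3 rose, 12 fell). The collagens had a median of -1.32 (0 rose, 26 fell). Of the 25 lists with a median above 0, 13 had one below 0 on that scale, among them glycolysis (0.21 to -0.16), the splicing genes (0.11 to -0.26), the zinc finger genes (0.03 to -0.34), the chromatin regulators (0.03 to -0.34) and AAK1 and clathrin endocytosis (0.01 to -0.37), and no list changed the other way.

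By annotation, 5.49% of 11782 protein-coding genes with a RefSeq transcript were separated and higher and 3.96% lower. Of 39 long non-coding RNA genes 6 were higher and 4 lower, and of 911 genes without a symbol 6.70% were higher and 3.40% lower. Whether the separation arose from the animals or from the series of libraries cannot be told apart in these data, since no group has libraries in both series.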

How the data were processed

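Read pairs were aligned by the authors to Sscrofa11.1 with STAR and counted per Ensembl gene with HTSeq 0.11.1 on the reverse strand, and the deposited count files hold whole-number counts without normalization. The expression columns of the deposited table are log2 values transformed by the authors and served only to match sample names and for gene symbols. Its fold changes and adjusted p-values are the authors' comparisons and were not used.

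Groups follow the titles. In R 4.3.3 and edgeR 4.0.16, genes were kept by filterByExpr (13552 of 25879), scaled by TMM and tested in 1 model of 5 groups, weighted equally in contrasts, with Benjamini-Hochberg adjustment. DESeq2 1.42.0 was an alternative. Log2 CPM used a prior count of 2. The 40 gene lists and the libraries compared were chosen with earlier results of these data known. Named genes were ZBTB20, NFAT5 and AAK1, the 12 widest gaps in each direction among genes with a symbol and a mean of at least 5 CPM, up to 3 separated members of each list, and MYL2, MYL4 and DDX3Y, of which 2 genes are not reported here. Transcript length, GC content and coordinates came from RefSeq (Sscrofa11.1) for 11829 genes, matched by symbol. The GC correction was a local regression with a span of 30% per library. The fit was tested on simulated data. Nothing beyond the titles shows separate extraction or repeat libraries, and p-values measure the spread between these samples. The SE of a log2 fold change was derived from the statistic of the edgeR test, which includes the spread between libraries. Floors of counts cover counting error only. Python 3.11.15 (pandas 2.3.3, numpy 2.4.6) served for the tables.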

Additional observations from a re-analysis of the deposited data

Results flagged for a closer look

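Of 168 groups of 5 libraries examined (DOX and MYO, for each named gene but 1 and 6 measures of the libraries), 13 held a library whose distance to its nearest neighbour took up more of the group's range than Dixon's test allows, and chance gives about 1 in 20. The named genes were largely chosen for their separation of the 2 sets, not for spread inside DOX or MYO.

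HEPACAM was at 349 CPM in DOX 1, with the next library at 73.0 CPM. NPPB was at 202 CPM in MYO 2 and at 37.8 CPM in the next, and COX3 at 26900 CPM in the same library against 15300 CPM. NRTN was lowest in MYO 2 as well, at 13.9 CPM with the next at 16.9 CPM. MYO 5 was lowest for RPS29 (162 CPM) and RPS28 (173 CPM), each with the next at 198 CPM. ANKRD12 was highest in DOX 5 at 40.9 CPM, TNNC1 in DOX 1 at 4840 CPM, and MRPL57 in DOX 3 at 28.9 CPM. DTNB was highest in DOX 2 at 10.5 CPM and in MYO 4 at 10.1 CPM. MYL4 was lowest in DOX 3 at 3.13 CPM, and DDX3Y highest in DOX 1 at 177 CPM.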

How the results depend on the processing

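Of 298 recomputed counts of genes, 274 stayed within 1.5 times the reported count, and no named gene reversed. With library totals only, which shift the median of all genes to -0.39, 1047 genes were higher and 6906 lower at the FDR threshold (982 and 6422 against DOX and MYO, 1129 and 6157 against RemoLV), 315 were lower by at least 2 log2 units, and 165 and 1403 were separated. On that scale TRIP12, MAP1LC3B, HADHA, HK1 and RGS5 no longer passed the edgeR test. The counts past 2 log2 units followed the filter, with 330 higher and 277 lower genes without a filter on low counts, 24 and 26 with at least 10 counts in every library, and 47 higher among genes with a RefSeq transcript. After correction for GC content and length there were 46 and 112, with 2047 lower genes against DOX and MYO and 223 separated lower genes. With DOX and MYO left out, so that 3 RemoLV libraries stood in place of 13, 2599 and 2516 genes were separated. The smaller number of libraries and the differing tissue of RemoLV cannot be told apart there. With RemoLV left out 896 were separated and lower, and with ranges at least 1 log2 unit apart 29 and 8. Leaving out 1 library at a time gave 771 to 1026 and 530 to 816 separated genes, the highest without Hyper 3, 3211 to 3711 and 3142 to 3950 at the FDR threshold, 92 to 125 and 155 to 247 past 2 log2 units, 2992 to 3532 and 3037 to 3753 against DOX and MYO, and 2698 to 3512 and 2683 to 3793 against RemoLV. The causes of these shifts were not tested.

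Replicate numbers are names only. Libraries with the same number did not deviate together (median correlation 0.01 over 32 pairs, against 0.00 over 110 other pairs), and with the replicate number as a block 3244 and 3233 genes passed the FDR threshold and 96 and 158 passed 2 log2 units as well. In a fit of 2 groups MYL2 did not pass (adjusted p = 0.36, edgeR). With every library thinned to the smallest total, 688 and 496 genes were separated, of which 648 and 416 were among those separated at full depth.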

Other observations

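ATP8, a gene of mitochondrial DNA, was counted in a pattern that crosses the 6 and 13 libraries. It had 20670, 23014 and 11275 counts in RemoLV, 11030 in DOX 3, 8614 in MYO 2, 1353 in Control 1 and 1443 in Control 3, and 0 to 22 counts in the remaining 12 libraries. Its neighbour ATP6, which it overlaps in mitochondrial DNA, had between 162919 and 567211 counts in all libraries. ATP8 was looked at after its values were seen.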
